A study of Mus musculus with 17 samples.

Results

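The comparison set 2 libraries of partially reprogrammed cells (piPSC) against 2 libraries of mouse embryonic fibroblasts (MEF), 4 of the 17 RNA-seq libraries of a study on reprogramming with and without Nanog. The members were taken by their labelled cell type. The piPSC were wild type, strain 129/B6 (v6.5), passage 6 and all of clone B1. The MEF were wild type, strain c57/b6, passage 2, grown in 10% serum. Colonies in this study came from fibroblasts infected with retroviruses for murine Oct4 (Pou5f1), Sox2, Klf4 and in some cases c-Myc, were picked on day 20 and were then kept on feeder fibroblasts in 2i medium with LIF; the labels do not say which factors the piPSC received. Wild-type embryonic stem cells (ESC, 4 libraries) and fully reprogrammed cells (iPSC, 3 libraries) served as a reference. They came in 2 series of sample codes, AC of strain 129/B6 and JI of strain c57/b6. The ESC were at passages 10 to 15, the AC iPSC library at 6 and the JI iPSC libraries at 10 to 15.

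The design set limits on this comparison. The piPSC carry sample codes of 1 series (AC) and the MEF of another (JI), and the strains differ in the same way, so strain, series and cell type cannot be told apart. The groups also differ in medium and passage, which cannot be told apart from cell type either. Y-linked genes, looked at after their values were seen, separated the groups too: Ddx3y had 21.5 and 21.6 FPKM in the MEF and 0.0198 and 0.0135 in the piPSC, and Eif2s3y 18.3 and 18.9 in the MEF and 0.084 and 0 in the piPSC. No label says that these MEF were the parents of the piPSC. The piPSC were 1 clone, and the labels tie no library to a culture of its own, so that the spread behind the p-values may be technical. Gene-level values do not separate retroviral from endogenous transcripts. Fewer cells of a type and less RNA per cell cannot be told apart in bulk RNA. ESC and iPSC were measured in both series, which differ in strain too, so the series difference named below holds strain as well. That difference is used as the scale against which the piPSC to MEF changes are read.

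Fibroblasts are mesenchymal cells that secrete and cross-link collagen-rich matrix, pull on it with actin stress fibres and signal through TGF-beta. In reprogramming the infected factors first silence this programme and start a mesenchymal-to-epithelial transition, and only later does the endogenous pluripotency network take over. Partially reprogrammed lines are stable colonies that stop between these stages, with the viral factors still active and much of the endogenous network off.

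The libraries held 8734157 and 19842932 fragments in the MEF and 29375299 and 28479632 in the piPSC. All 10 fibroblast markers checked reached 1 FPKM (fragments scaled to transcript length and to library size) in the MEF, with a summed level of 3592 and 3547 FPKM, and 4 of 10 did so in the piPSC, with 78.2 and 24.7. None of the 8 pluripotency markers reached 1 FPKM in the MEF and 6 did in the piPSC. Esrrb, among these 8, had a failed status in the study's libraries and was left out of the test. The MEF also held all 9 macrophage markers, at 638 FPKM summed in both libraries, against 6.84 and 10.6 in the piPSC, where Emr1, Tyrobp and C1qa were at 0. The piPSC replicates differed by more than 2-fold at 37 of 6886 genes (0.537%) and the MEF replicates at 4 of 6664 (0.0600%). Ribosomal protein genes took 3.66 to 3.67% of fragments in the MEF and 8.68 to 9.24% in the piPSC, a difference whose part in the results was not tested.

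Of 14011 genes tested with edgeR's quasi-likelihood test, 1781 were called higher in the piPSC (12.7%) and 2244 lower (16.0%), a call being a Benjamini-Hochberg adjusted p below 0.05 and at least a 4-fold difference. Both directions came to 28.7%, and without the fold limit 79.9% of genes passed, so size and not the p-value separated them. The median log2 change was 0.04. Between the 2 series the same call took in 1512 genes in ESC (10.8%) and 2247 in iPSC (16.0%). The AC iPSC are a single library, which the fit assumes to vary like the other groups, and they also differ in passage from the JI iPSC. Differences of 4-fold were therefore common with no change of cell type. At 64-fold the scales separated: 429 genes were that much higher in the piPSC (3.06%) and 826 lower (5.90%), against 60 between the ESC series (0.428%) and 80 between the iPSC series (0.571%). When a term shared by all groups took up the series difference, 1347 of the higher genes (9.61% of those tested) and 1899 of the lower genes (13.6%) were still called. In all, that fit called more genes than the main fit, 2435 higher and 2766 lower. Of the 4025 genes called in the main fit, 104 had the opposite sign in it. That fit assigns to every group the series difference of ESC and iPSC. Its log2 value is given below as the series-adjusted change for named genes it moved across the call threshold, the Hox rises excepted. Of the named genes not called in either fit, 20 changed sign with it, so their direction depends on that term. Of the called genes, 3666 (26.2% of those tested) changed by more than the series difference of both ESC and iPSC. Where a list below has 0 calls in a direction, DESeq2 and edgeR's unadjusted p below 0.05, both at 4-fold, also gave 0, except for 1 transcription factor called higher by DESeq2. The series-term fit called some there, among them 3 amino acid genes lower, 3 cell cycle barrier genes higher and 1 contractile gene higher. A gene near 0 in 1 group enters the test only if it is high in the other. In lists with many untested members the calls are therefore partly set by this filter.

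**Figure D1:**
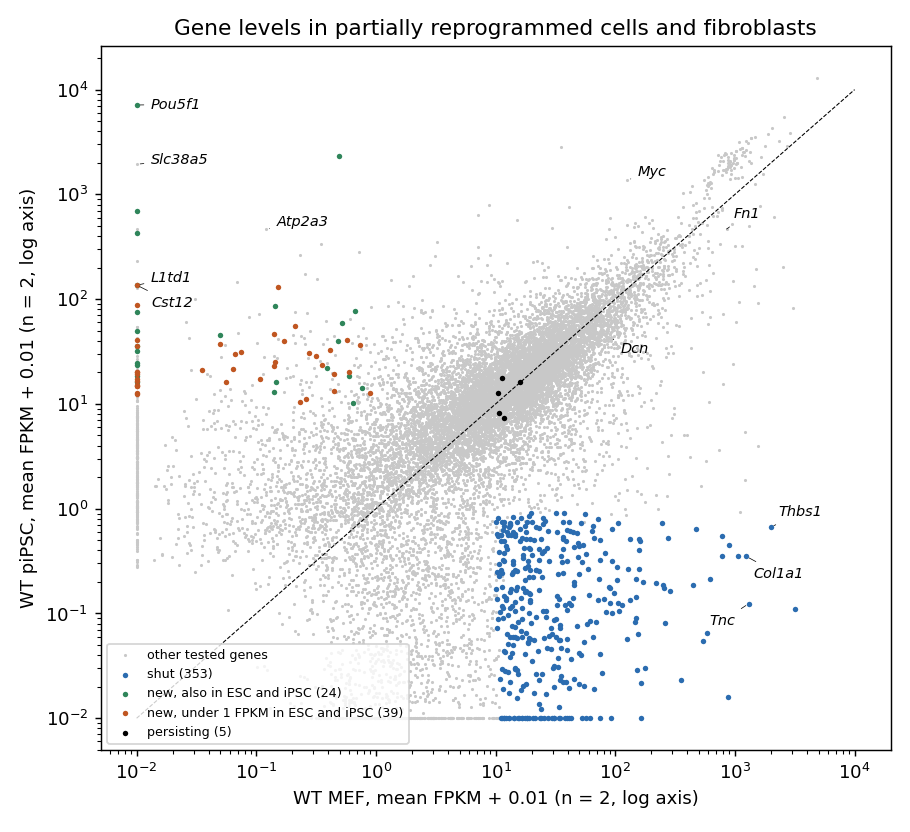
Mean FPKM of each tested gene in the 2 MEF libraries (horizontal) and the 2 piPSC libraries (vertical), both on log axes with 0.01 added, with classes set by level in colour. The 353 genes shut in the piPSC include Thbs1, Tnc and Col1a1 at the upper end of the MEF range, while Pou5f1 and Slc38a5 lie at 0 in the MEF with piPSC means of 7139 and 1941 FPKM.

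Most genes of the MEF cultures stayed on. Of 6482 genes at 10 FPKM or more in both MEF libraries, 4356 (67.2%) had a piPSC mean between 0.5 and 2 times the MEF mean, 592 (9.13%) lay above that range, and 353 (5.45%) were shut, that is, under 1 FPKM in both piPSC libraries. The picture changed for genes that ESC and iPSC do not use. Among 296 genes at 10 FPKM or more in the MEF and at no more than 0.1 of the MEF mean in every ESC and iPSC library, 171 (57.8%) were under 1 FPKM in both piPSC libraries, 10 (3.38%) kept 0.5 to 2 times the MEF level and 5 (1.69%) exceeded it. The median of these 296 genes in the piPSC was 1.2% of the MEF level. These classes were cut from the same FPKM values they describe and carry no test. The shut genes include macrophage genes such as C1qa, Lyz2 and Csf1r and the Y-linked Ddx3y and Eif2s3y. The counts are thus of genes on in the MEF cultures and not of fibroblast genes alone.

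The fibrillar collagens, the tensile scaffold of the fibroblast's matrix, were mostly close to absent from the piPSC. Col1a1, the alpha-1 chain of type I collagen, had 1248 and 1230.2 FPKM in the MEF and 0.364 and 0.319 in the piPSC. It fell by 11.85 ± 0.20 (SE) on the log2 scale (edgeR adjusted p = 8.91e-17). Its partner chain Col1a2 went from 901 and 882 to 0.414 and 0.464 FPKM, and Col3a1, the type III chain, from 446 and 448 to 0.185 and 0.169. In none of these did the groups overlap, which held for 88.9% of all tested genes. Of 16 tested collagen genes, 15 fell and 0 rose, with a median log2 change of -8.19 against 0.04 over all genes, and all 15 were also called with the series term. Col5a2, a type V chain named after its values were seen, fell but kept the highest level of the list, with 275 and 272 FPKM in the MEF and 24.7 and 36.0 in the piPSC. The gene not called was Col15a1, a basement-membrane-zone collagen, at 6.45 and 8.54 FPKM in the MEF and 2.85 and 3.07 in the piPSC, and its series-adjusted change was 0.02.

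At 12 of the 16 collagen genes the piPSC mean was also below every ESC and iPSC library. The exceptions were Col5a2, Col6a1, Col6a3 and Col15a1. Col1a1 stood at 50.4 and 46.8 FPKM in the AC ESC libraries and 6.06 and 6.35 in the JI ones, which is 4.07 and 3.78% and 0.489 and 0.512% of the MEF mean, while the piPSC libraries were at 0.0294 and 0.0258%. Over the 353 shut genes, the piPSC mean lay below every ESC and iPSC library at 284 (80.5%). The growth protocol names feeder fibroblasts, and the part of feeder RNA in any value was not tested.

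The enzymes that finish collagen split. Lox, lysyl oxidase, which cross-links collagen fibrils, fell from 614 and 615 FPKM to 0.222 and 0.182 in the piPSC, a log2 change of -11.70 ± 0.19 (SE). Its relative Loxl1 fell from 156 and 153 to 0.036 and 0.0705. Serpinh1, the collagen chaperone HSP47, also fell but kept a measurable level, with 788 and 811 FPKM in the MEF and 15.1 and 15.7 in the piPSC. In contrast, Pcolce, which enhances cleavage of the procollagen C-propeptide, had 208 and 202 FPKM in the MEF and 508 and 451 in the piPSC. Fkbp10, a prolyl isomerase of the collagen-folding pathway, had 118 and 124 in the MEF and 184 and 174 in the piPSC. Neither passed the 4-fold limit, and for Pcolce the series-adjusted change was 2.55. In the list, 9 of 16 genes fell and 0 rose, with a median log2 change of -3.00. The other 7 were not called.

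Most of the non-collagenous matrix genes fell too, though 5 of 26 genes kept a piPSC mean of 10 FPKM or more. In both piPSC libraries 14 were under 1. Tnc, the adhesion-modulating glycoprotein tenascin-C, fell from 1290.3 and 1325 FPKM to 0.0644 and 0.165, and Thbs1, thrombospondin 1, from 1977 and 2002 to 0.763 and 0.546. Igfbp7 fell from 149.9 and 147 to 0.0629 and 0.0963. The microfibril protein Mfap4 had 152 and 150.0 FPKM in the MEF and 0.0382 and 0 in the piPSC, where 2 fragments were counted in all. Of 26 tested glycoproteins and proteoglycans, 23 fell and 0 rose (median log2 change -7.81), and all 23 were also called with the series term. Sparc, a collagen-binding glycoprotein named after its values were seen, fell but kept 5.01 and 6.75% of the MEF level.

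Fn1, fibronectin, was the most abundant gene of this list left in the piPSC, with 849 and 856 FPKM in the MEF and 393 and 542 in the piPSC (log2 change -0.93 ± 0.14 (SE), not called). Its series-adjusted change was -3.90. AC ESC held more of it (226 and 222 FPKM) than JI ESC (26.7 and 30.6). Dcn, the collagen-binding proteoglycan decorin, stood at 91.9 and 88.4 FPKM in the MEF and 66.6 and 18.4 in the piPSC. The second piPSC library was the low one: Dcn was not called (log2 change -1.14 ± 0.34 (SE)), and without piPSC replicate 1 it was, at -2.36. Efemp2, a fibulin needed for elastic fibres, had 107 and 115 FPKM in the MEF and 33.9 and 43.3 in the piPSC and was not called. Lum, another small proteoglycan, named here after its values were seen, also split the piPSC libraries, at 7.9 and 0.365% of the MEF mean. So did Postn (0.554 and 0.0781%) and Col6a3 (1.96 and 0.331%), likewise named after their values were seen. Col1a1 did not, and Fn1, Sparc, Vim and Tnc were higher in the second piPSC library.

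Matrix turnover genes followed the matrix. Plat, tissue plasminogen activator, fell from 75.5 and 74.6 FPKM to 0.0627 and 0. Mmp3, stromelysin 1, fell from 72.3 and 65.4 FPKM to 0.0729 and 0.0743, a log2 change of -9.87 ± 0.23 (SE) (edgeR adjusted p = 1.42e-15). Of 22 tested proteases and inhibitors, 20 fell and 0 rose (median log2 change -7.90), and 18 of the 20 were also called with the series term. The gelatinase Mmp2 remained, with 93.7 and 91.8 FPKM in the MEF and 51.5 and 45.1 in the piPSC, as did Adamts12, a metalloproteinase, with 6.87 and 6.77 in the MEF and 6.95 and 6.57 in the piPSC.

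**Figure D2:**
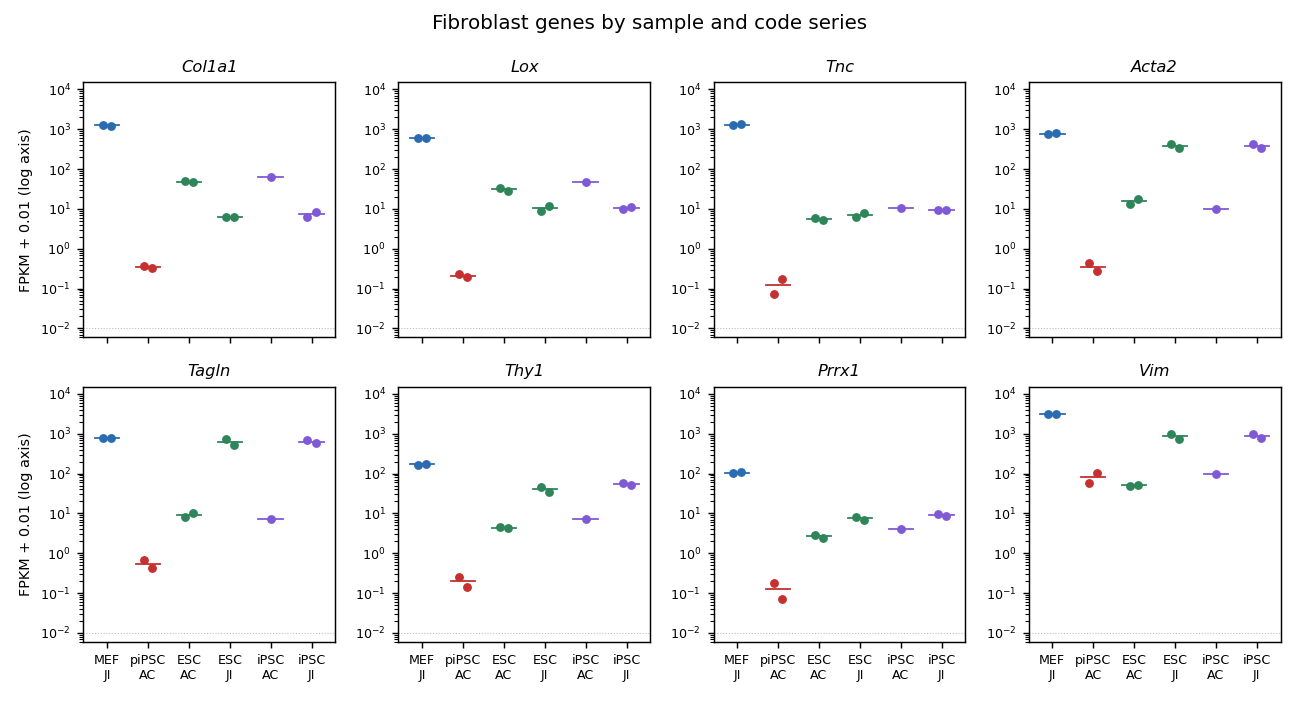
FPKM (log axis, 0.01 added, dotted line at 0) of 8 fibroblast genes in every library, by cell type and code series; points are libraries and bars group means. In all panels the piPSC lie below the MEF, and in all but Vim they lie below every ESC and iPSC library.

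Surface genes divided into lost, kept and gained. Thy1, the fibroblast surface glycoprotein whose loss is used to mark cells leaving the fibroblast state, fell from 169 and 172 FPKM to 0.246 and 0.135, a log2 change of -9.84 ± 0.20 (SE). Pdgfrb, a receptor for platelet-derived growth factor, fell from 29.8 and 28.3 to 0.062 and 0.0632, and Cdh2, N-cadherin, from 32.1 and 33.5 to 0.131 and 0.0919. Il1rl1, the interleukin-33 receptor, had 876 and 874 FPKM in the MEF and 0 and 0.0121 in the piPSC, 1 fragment in all. The integrin beta-1 chain Itgb1 was not called, at 650.0 and 649.6 in the MEF and 179 and 177 in the piPSC.

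Another pair of surface genes rose. Ly6a, the stem cell antigen Sca-1, went from 14.4 and 15.8 FPKM in the MEF to 591 and 558 in the piPSC (log2 change 5.15 ± 0.14 (SE)), above the 13.4 to 77.9 FPKM of the ESC and iPSC libraries. Nt5e, the ecto-enzyme CD73 that is used as a mesenchymal stromal marker, rose from 2.04 and 2.33 to 44.8 and 40.1 FPKM, with 0.462 to 2.29 in ESC and iPSC. In this list of 24, 15 genes fell (62.5%) and 2 rose (8.33%), against 16.0% and 12.7% of all tested genes. The median log2 change was -3.94. The calcium-binding proteins S100a4 and S100a6 show how far the series adjustment reaches. S100a6 had 1284 and 1298 FPKM in the MEF and 649 and 604 in the piPSC, but 24.9 and 30.2 in AC ESC and 1509 and 827 in JI ESC, and its series-adjusted change was 4.08. That of S100a4 was 5.22, against -1.49 ± 0.23 (SE) without the adjustment.

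The contractile apparatus fell as a group. Acta2, smooth muscle actin of stress fibres, fell from 766 and 793 FPKM to 0.423 and 0.263 (log2 change -11.20 ± 0.24 (SE)), and Tagln, the actin-bundling protein transgelin, from 774 and 773 to 0.671 and 0.406. Myl9, the regulatory myosin light chain, fell from 146 and 152 to 0.132 and 0.137, and Flnc, filamin C, from 123 and 127 to 0.0464 and 0.0468. No piPSC library came near a MEF library in these 4 genes. Of 25 tested genes, 22 fell and 0 rose (median log2 change -4.24), of which 16 were also called with the series term. The series also differed here, and the JI ESC libraries held 430.3 and 332 FPKM of Acta2 and 730.0 and 527 of Tagln against 13.5 and 17.6 of Acta2 and 7.91 and 10.2 of Tagln in AC ESC. The tropomyosin gene Tpm2, named after its values were seen, fell from 199 and 209 FPKM to 18.2 and 27.3, yet its series-adjusted change was 0.31.

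Srf, serum response factor, drives many contractile genes through the CArG box. It stood at 24.2 and 24.1 FPKM in the MEF and 7.43 and 6.73 in the piPSC (log2 change -1.83 ± 0.10 (SE)), just inside the 4-fold limit. Because these genes moved together, their promoter windows (250 bases before to 50 after the RefSeq start, GRCm38.p6) were searched for the CArG box on both strands, a motif chosen after the falls were seen. A window was matched for 19 of the 22 genes that fell, and 3 of these genes held a box (15.8%), against 488 of 27025 genes with a window (1.81%). Over all 22 genes of the list with a window, fallen or not, 4 held one (18.2%). The AP-1 motif TGANTCA, also searched on both strands, was in 3 of the 19 as well (15.8%), against 2425 of all genes (8.97%). The 3 fallen genes with a CArG box are Myl9, Cnn2 and Vcl, shown here with Srf itself, whose window holds 2 boxes; capitals mark the CArG boxes, and each window is written 5′ to 3′.
Myl9 (chr2:156775214-156775513, plus strand): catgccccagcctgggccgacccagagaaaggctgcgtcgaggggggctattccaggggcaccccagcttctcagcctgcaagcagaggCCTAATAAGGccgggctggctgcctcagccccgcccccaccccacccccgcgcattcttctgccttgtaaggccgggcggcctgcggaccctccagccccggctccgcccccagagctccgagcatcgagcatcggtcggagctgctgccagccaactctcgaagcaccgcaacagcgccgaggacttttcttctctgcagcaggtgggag
Cnn2 (chr10:79988350-79988649, plus strand): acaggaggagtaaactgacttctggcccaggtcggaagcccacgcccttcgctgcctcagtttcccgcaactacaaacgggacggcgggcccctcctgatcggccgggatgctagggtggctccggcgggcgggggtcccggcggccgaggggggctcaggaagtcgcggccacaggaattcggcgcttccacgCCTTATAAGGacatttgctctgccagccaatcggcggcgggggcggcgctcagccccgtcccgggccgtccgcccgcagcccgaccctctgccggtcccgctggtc
Vcl (chr14:20929148-20929447, plus strand): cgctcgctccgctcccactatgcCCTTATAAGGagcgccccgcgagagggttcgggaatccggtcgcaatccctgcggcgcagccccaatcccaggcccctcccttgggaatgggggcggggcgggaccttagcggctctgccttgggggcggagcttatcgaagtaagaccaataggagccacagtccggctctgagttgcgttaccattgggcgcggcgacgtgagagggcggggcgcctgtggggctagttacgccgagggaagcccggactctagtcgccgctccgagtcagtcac
Srf (chr17:46556113-46556412, minus strand): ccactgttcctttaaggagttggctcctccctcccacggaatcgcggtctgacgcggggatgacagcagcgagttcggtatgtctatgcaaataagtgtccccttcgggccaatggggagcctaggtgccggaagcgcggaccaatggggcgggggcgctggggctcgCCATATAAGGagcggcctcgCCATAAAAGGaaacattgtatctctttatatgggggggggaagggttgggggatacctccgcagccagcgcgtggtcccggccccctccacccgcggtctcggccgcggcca
Cnn2, calponin 2, fell from 292 and 294 FPKM to 4.22 and 5.94, and Vcl, the focal adhesion protein vinculin, from 94.4 and 96.0 to 7.34 and 8.19. Acta2 and Tagln fell further than Cnn2 and Vcl without an exact match in their windows. The match describes these letters only and does not show binding.

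Of 28 tested TGF-beta and BMP pathway genes, 16 fell (57.1%, against 16.0% of all tested genes) and 0 rose. The median log2 change was -2.42, and 13 of the 16 falls were also called with the series term. Inhba, the activin A subunit, fell from 536 and 542 FPKM to 0.0218 and 0.0669. Its antagonist follistatin (Fst) had 175 and 181 FPKM in the MEF and 0.041 and 0 in the piPSC. Ltbp2, a member of the latent TGF-beta binding protein family, fell from 53.9 and 53.4 to 0.396 and 0.484. The shared effector Smad4 was not called, with 38.3 and 30.7 FPKM in the MEF and 25.0 and 30.2 in the piPSC. Fstl1, a secreted follistatin-like protein, had 451 and 449.8 in the MEF and 244 and 259 in the piPSC. Id1, a direct BMP target, had 82.3 and 90.8 in the MEF and 111 and 124 in the piPSC, but its series-adjusted change was 4.90.

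Of 34 tested mesenchymal transcription factors, 23 fell and 0 rose (median log2 change -4.28), and 20 of the 23 were also called with the series term. Prrx1, a limb and fibroblast homeobox factor, fell from 103 and 107 FPKM to 0.173 and 0.0595 (log2 change -9.70 ± 0.20 (SE)), and Twist2 had 36.0 and 32.9 FPKM in the MEF and 0 and 0.0262 in the piPSC. Zeb2, a repressor of E-cadherin, fell from 32.2 and 31.8 to 0.0693 and 0.088. Osr1 and Foxf2, low in the MEF (7.19 and 6.05 FPKM of Osr1 and 3.32 and 3.27 of Foxf2), had no fragment in either piPSC library, which puts them at least 142-fold and 84.0-fold lower when a floor of 3 fragments is set for each piPSC library.

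Not all regulators of the epithelial-to-mesenchymal transition went the same way. Zeb1, the relative of Zeb2, was not called, at 19.6 and 16.3 FPKM in the MEF and 9.48 and 9.56 in the piPSC, and Snai2 was at 14.0 and 14.3 in the MEF and 3.49 and 4.25 in the piPSC, at the edge of the call: without piPSC replicate 2 it was called, at -2.08. Snai1 fell from 42.2 and 42.7 to 4.27 and 4.99 FPKM (log2 change -3.26 ± 0.14 (SE)) with 0.578 to 4.38 in ESC and iPSC. Twist1 fell from 22.7 and 20.8 to 2.81 and 4.46, but with the series term its change was -0.55 and not called. Foxp1, Klf3 and Tead2 were the most abundant factors not called, with 59.8 and 71.1 FPKM of Foxp1, 75.1 and 93.8 of Klf3 and 40.3 and 52.7 of Tead2 in the piPSC.

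Secreted signals of the MEF cultures fell throughout the list: 23 of 23 tested cytokine, chemokine and growth factor genes fell, and all 23 were also called with the series term. The chemokine Cxcl12 had 160.1 and 167 FPKM in the MEF and 0.00541 and 0.0177 in the piPSC, 2 fragments in all, and Ccl2 had 267 and 253 in the MEF and 0.0466 and 0.0951 in the piPSC, 3 fragments in all. Ccl9 and Ccl5 had no fragment in the piPSC. The median log2 change was -8.18 as fitted and -7.40 with the 4 genes at 0 in the piPSC set to their bounds. Macrophage genes moved in the same direction. Of 17 tested macrophage and blood genes, 15 fell, and Lyz2, macrophage lysozyme, had 353 and 357 FPKM in the MEF and 0.026 and 0 in the piPSC. C1qa, a complement subunit, had 56.9 and 56.1 FPKM in the MEF and 0 in both piPSC libraries. The part of macrophages in the cytokine values of the MEF cultures was not tested.

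Of 27 interferon genes tested, 12 fell (44.4%, against 16.0% of all tested genes) and 0 rose. The fit with the series term called 13 lower and 7 higher. Isg15, a ubiquitin-like modifier, fell from 57.8 and 59.9 FPKM to 0.307 and 0.209, and Ifit3 from 15.0 and 18.4 to 0 in both. The membrane-bound antiviral genes Ifitm3 (282 and 289 FPKM, then 311 and 277) and Bst2 (85.5 and 83.4, then 154 and 145) were not called. With the series term the change of Ifitm3 was 2.23 and that of Bst2 3.76, both called higher. Of 27 ERK feedback and AP-1 genes, 13 fell (48.1%) and 2 rose (7.41%), against 16.0% and 12.7% of all tested genes. Fosl1, an AP-1 subunit, fell from 24.5 and 24.8 to 0.174 and 0.0197 FPKM and Phlda1 from 57.9 and 54.7 to 0.998 and 0.748. The ETS factor Etv5 rose from 8.85 and 9.28 to 159.9 and 181 FPKM, although its series-adjusted change of 1.22 was under 4-fold, and Etv1 rose from 1.07 and 1.06 to 16.4 and 14.2.

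Among imprinted genes, which are expressed from 1 parental copy, 13 of 24 fell (54.2%) and 3 rose (12.5%), against 16.0% and 12.7% of all tested genes. Their median log2 change was -2.82. Igf2, a fetal growth factor, fell from 1050.2 and 1071 FPKM to 0.303 and 0.378, and its neighbour H19, a non-coding RNA, from 1561 and 1574 to 3.11 and 4.82. At the Dlk1-Meg3 cluster, Dlk1 had 160.5 and 167 FPKM in the MEF and 0 in both piPSC libraries, at least 2525-fold lower, and Meg3 fell from 286 and 284 to 0.198 and 0.111. ESC and iPSC of both series held Meg3, at 28.6 to 94.3 FPKM. Snrpn, a splicing protein gene, rose from 3.68 and 4.39 to 40.1 and 39.0 FPKM. Cdkn1c, a cell cycle inhibitor, was not called, at 31.2 and 29.6 FPKM in the MEF and 79.1 and 63.4 in the piPSC, with a series-adjusted change of 2.99.

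**Figure D3:**
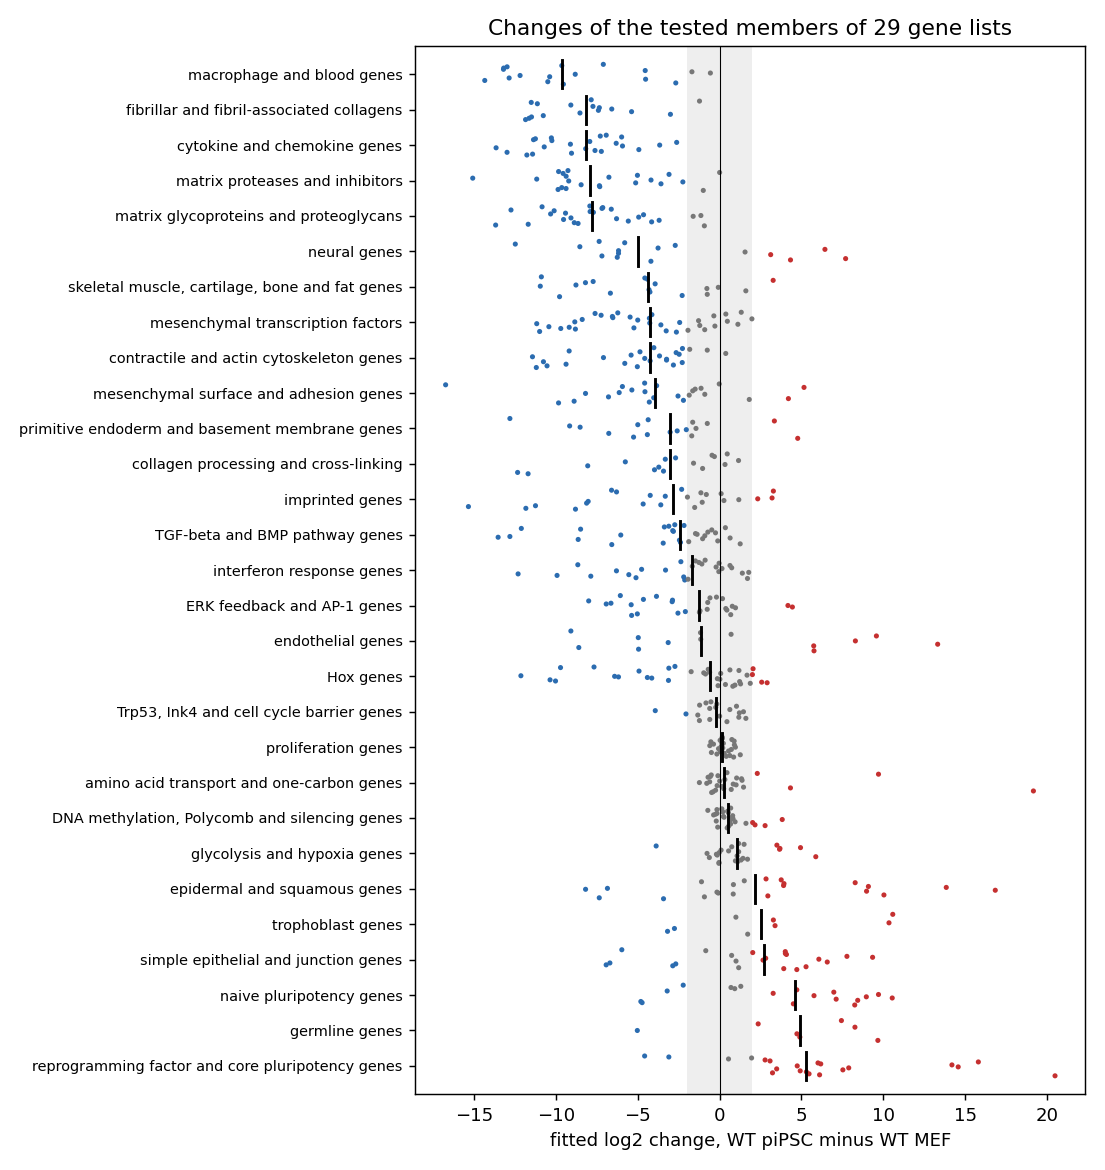
Fitted log2 change (piPSC minus MEF) of every tested member of 29 gene lists; each point is a gene (red called higher, blue called lower, grey not called), the black bar is the list median and the grey band is 4-fold. Values of genes at 0 in one group depend on the model's prior count. Matrix, cytokine and macrophage lists lie to the left, pluripotency lists to the right, and all 27 proliferation genes lie inside the band.

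Few MEF-restricted genes persisted. The strict class, at 10 FPKM or more in both MEF libraries, within 2-fold in the piPSC and under 1 FPKM in every ESC library, held 5 genes. Irf2, an interferon-pathway repressor, had 10.3 and 10.6 FPKM in the MEF, 12.6 and 12.8 in the piPSC and 0.266 to 0.966 in ESC and iPSC. Tet3, a 5-methylcytosine dioxygenase, had 10.8 and 11.6 in the MEF and 16.6 and 18.4 in the piPSC, with 0.183 to 1.30 in ESC and iPSC and a series-adjusted change of -1.56 against 0.67 ± 0.10 (SE). Ngef, a guanine nucleotide exchange factor, had 11.4 and 10.1 in the MEF and 6.89 and 9.33 in the piPSC, and Sorcs2, a sortilin-family receptor, 11.6 and 12.0 in the MEF and 9.35 and 5.19 in the piPSC, with a series-adjusted change of -2.08. The kinase gene Dclk1 had 16.1 and 15.6 FPKM in the MEF and 24.6 and 8.04 in the piPSC, so that its groups overlapped and its place in the class rests on the mean. In Irf2 and Tet3 both piPSC libraries lay above both MEF libraries, and in Ngef and Sorcs2 both lay below. For Tet3 that direction turned with the series term. The class is sensitive to its limits: at limits of 20 and 2 FPKM it held 2 genes, none of these 5.

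A wider rule, chosen after seeing the data, allowed up to 0.1 of the MEF level in ESC and iPSC and found 10 genes. Elk3, an ETS-family repressor, led it with 64.5 and 64.8 FPKM in the MEF and 39.9 and 53.3 in the piPSC, against 2.16 to 5.11 in ESC and iPSC. With the series term its small difference changed sign (0.36), as did those of Camk2d (0.01) and Dclk1 (-0.28). Camk2d, a calcium-dependent kinase, had 65.6 and 61.4 in the MEF and 37.8 and 47.3 in the piPSC, and Ahnak2, a large scaffold protein, 39.4 and 38.0 in the MEF and 39.7 and 37.4 in the piPSC. Nfix, a nuclear factor I protein, had 26.0 and 25.3 in the MEF and 18.6 and 21.7 in the piPSC, with a series-adjusted change of -2.02. Ltbp3, which carries latent TGF-beta, had 33.0 and 34.1 in the MEF and 15.1 and 18.9 in the piPSC. The other 5 were Adcy6, Rnf217, Dclk1, Ngef and Irf2.

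By the same rule 5 genes exceeded 2 times the MEF level. Myc had 124 and 127 FPKM in the MEF and 1237 and 1506 in the piPSC (log2 change 3.23 ± 0.15 (SE)), against 2.11 to 6.85 in ESC and iPSC. Arhgap31, a GTPase-activating protein for Rac and Cdc42, had 21.9 and 23.1 in the MEF and 76.5 and 82.5 in the piPSC, and Synpo, the actin-associated synaptopodin, 28.3 and 24.3 in the MEF and 111 and 86.9 in the piPSC. Tgfb2, a TGF-beta ligand, had 15.7 and 15.8 in the MEF and 39.4 and 37.8 in the piPSC, while the other ligands Tgfb1 and Tgfb3 fell (for Tgfb3 the series-adjusted change of -1.69 was not called). Pkp1, the desmosomal plakophilin 1, had 12.1 and 12.5 in the MEF and 22.3 and 31.2 in the piPSC. Of these 5, Myc alone passed the 4-fold call.

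**Figure D4:**
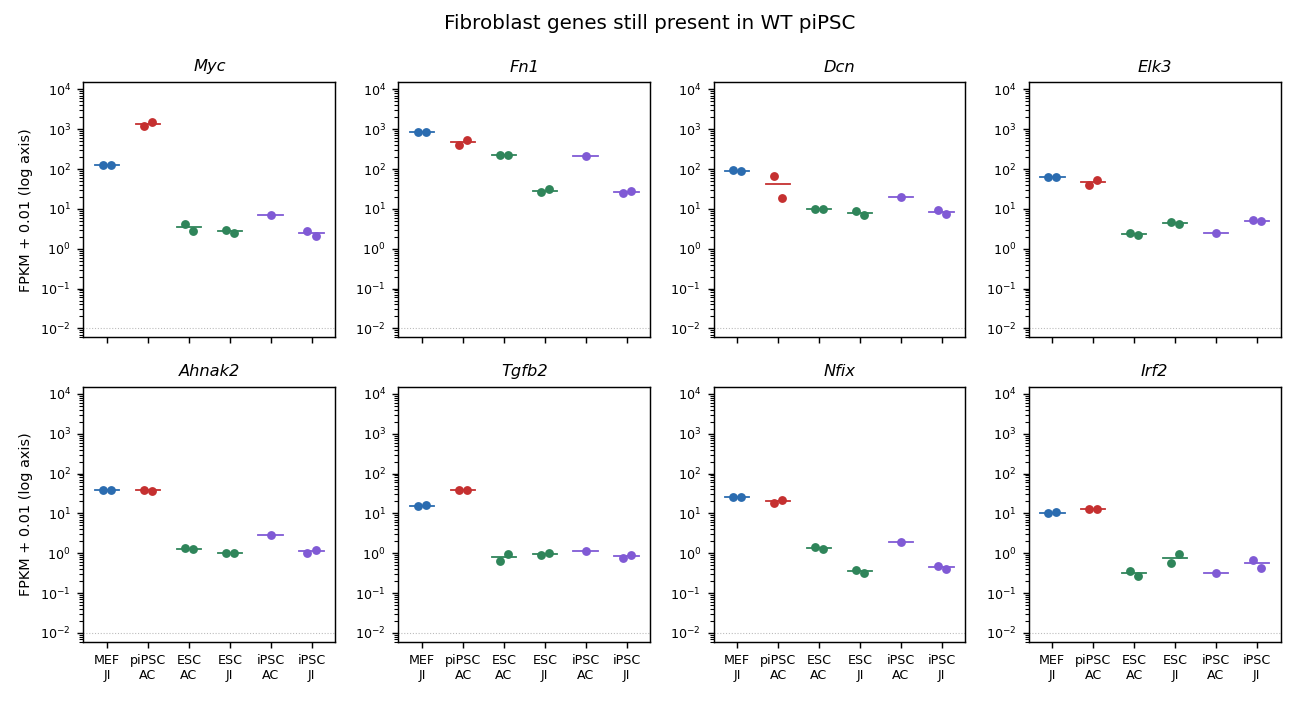
FPKM (log axis, 0.01 added) of 8 genes still present in the piPSC, in every library by cell type and code series; points are libraries and bars group means. Myc and Tgfb2 lie above the MEF, Elk3, Ahnak2, Nfix and Irf2 lie within 2-fold of it, and the 2 piPSC libraries are farthest apart in Dcn.

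Hox genes, which record a cell's place along the body and limb axes, gave 13 falls (37.1%) and 4 rises (11.4%) of 35 tested. The other 18 were not called (median log2 change -0.61). Over all tested genes 16.0% fell and 12.7% rose, so the share of Hox rises was near that of all genes. In both piPSC libraries 17 Hox genes were under 1 FPKM. Hoxb9 had 8.90 and 10.6 FPKM in the MEF and 0 in both piPSC libraries, at least 272-fold lower, and Hoxa11 (2.86 and 2.77 FPKM in the MEF) and Hoxd11 (1.53 and 1.87) were also at 0. In the same clusters Hoxa9 rose from 6.58 and 4.62 to 30.3 and 43.7 FPKM and Hoxa7 from 2.22 and 2.64 to 22.1 and 20.6, while Hoxa10 (7.39 and 6.19, then 15.5 and 18.9) and Hoxc6 (6.80 and 5.27, then 5.89 and 6.92) were not called. In ESC and iPSC, Hoxa9 was at 0.141 to 2.99 FPKM. None of the 4 rises (the others were Hoxc4 and Hoxd9, each lost without piPSC replicate 2) was called with the series term, and 12 of the 13 falls were.

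None of 27 proliferation genes was called in either direction by edgeR (median log2 change 0.16). At an unadjusted p below 0.05 and any fold, 12 were higher and 4 lower, and DESeq2 and limma called 0 at 4-fold. The fit with the series term called 1 higher and 0 lower. The replication clamp Pcna had 143 and 140.1 FPKM in the MEF and 170.5 and 164 in the piPSC, against 386 to 617 in ESC and iPSC. Cdk1, the mitotic kinase, had 71.9 and 74.3 in the MEF and 73.0 and 86.3 in the piPSC. Of 19 barrier genes of the p53 and Ink4 pathways, 2 fell (10.5%, against 16.0% of all tested genes). Ccnd2, cyclin D2, fell from 96.5 and 94.4 to 4.96 and 8.06 FPKM, and Cdkn2c from 3.73 and 3.97 to 0.696 and 1.38. The fall of Cdkn2c was lost with the series term (-1.95) and without piPSC replicate 1 (-1.68) or MEF replicate 2 (-1.91). Trp53 (p53) had 78.0 and 86.2 in the MEF and 125 and 108 in the piPSC, and its target Cdkn1a (p21) 152 and 160.0 in the MEF and 139 and 106 in the piPSC. The Ink4/Arf locus Cdkn2a had 6.18 and 7.46 in the MEF and 5.54 and 9.14 in the piPSC, with overlapping groups, and Cdkn2b 12.3 and 13.4 in the MEF and 5.30 and 5.48 in the piPSC. Ccnd1, cyclin D1, was at 83.5 and 89.4 in the MEF and 249 and 236 in the piPSC, a log2 change of 1.46 ± 0.08 (SE) that stayed inside the limit (series-adjusted 2.36).

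Of genes under 1 FPKM in both MEF libraries, 182 were at 10 FPKM or more in both piPSC libraries. ESC and iPSC shared 24 of them at 10 FPKM or more in every library, 39 were under 1 FPKM in every ESC and iPSC library, and the rest met neither limit. For 77 of the 182, no ESC or iPSC library exceeded 0.1 of the piPSC mean. Gene models named only by a clone or number, or as pseudogenes, made up 36 of the 182 and 8 of the 24. Their reads can be shared with near-identical copies, and they are not described.

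Of the reprogramming factors, Pou5f1 was the most abundant new transcript. It had no fragment in either MEF library and 6975 and 7303 FPKM in the piPSC, at least 32068-fold higher, against 639.5 to 1585 in ESC and iPSC. Klf4 rose from 35.5 and 35.1 to 2548 and 3065 FPKM (log2 change 5.46 ± 0.13 (SE)), with 9.51 to 65.3 in ESC and iPSC. Sox2 rose from 0.338 and 0.601 to 28.6 and 51.5 FPKM, below the 84.8 to 156 of ESC and iPSC. Thus Pou5f1, Klf4 and Myc exceeded every ESC and iPSC library and Sox2 was under all of them. Whether these transcripts were viral or endogenous was not tested.

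The endogenous pluripotency genes came on to very different degrees. L1td1, an RNA-binding protein of pluripotent cells, had no fragment in the MEF and 124 and 147 FPKM in the piPSC, near the 86.7 to 139 of ESC and iPSC. Fbxo15, an Oct4 target used as an early reprogramming reporter, went from 0 and 0.266 to 86.9 and 83.8 FPKM (111 to 378 in ESC and iPSC). Morc1, a germline silencing factor, had 50.0 and 49.1 FPKM in the piPSC against 0 in the MEF, above every ESC and iPSC library (24.5 to 36.7). Tdgf1, the Nodal co-receptor Cripto, had 57.6 and 94.2 FPKM in the piPSC and 299 to 1155 in ESC and iPSC. Fgf4, a growth factor gene controlled by Oct4 and Sox2, had 40.4 and 30.8 FPKM in the piPSC and 75.9 to 97.7 in ESC and iPSC. Nanog was called higher, but from 0.242 and 0.0539 to 3.12 and 2.91 FPKM, against 270.1 to 762 in ESC and iPSC. Dppa5a, an abundant transcript of naive cells, had 18.7 and 18.2 FPKM in the piPSC and 4384 to 17020.0 in ESC and iPSC. Of these genes, L1td1 and Morc1 reached the levels of ESC and iPSC, and Nanog and Dppa5a were farthest below them.

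Of 21 tested core pluripotency genes, 17 rose (81%) and 2 fell (9.52%), against 12.7% and 16.0% of all tested genes. With the series term 14 of the 17 rises were also called. The median log2 change was 5.30 as fitted and 4.74 with genes at 0 set to their bounds. Another 7 of the 28 listed were not tested. Genes near 0 in the MEF entered only where the piPSC were high, which favours rises. The 2 that fell were Mycn, from 2.47 and 2.05 to 0.201 and 0.323 FPKM, and Epha1, from 1.14 and 1.33 to 0.0572 and 0.0486 (series-adjusted -1.17). Of 18 tested naive genes, 11 rose (61.1%) and 4 fell (22.2%), and 5 more of the 23 listed were not tested. The falls included Klf2, a naive-state transcription factor, from 26.6 and 25.1 to 0.937 and 1.08 FPKM, and Tbx3, from 3.75 and 5.09 to 0.213 and 0.244. ESC and iPSC held 14.8 to 109 FPKM of Klf2 and 5.58 to 69.8 of Tbx3, so both genes were lower in the piPSC than in the MEF and in every ESC and iPSC library. Il6st, the gp130 receptor chain for LIF, fell from 58.0 and 59.6 to 12.6 and 13.6, while its partner Lifr (4.91 and 5.19, then 9.38 and 9.42) and Stat3 (33.2 and 36.0, then 59.6 and 54.7) were not called.

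**Figure D5:**
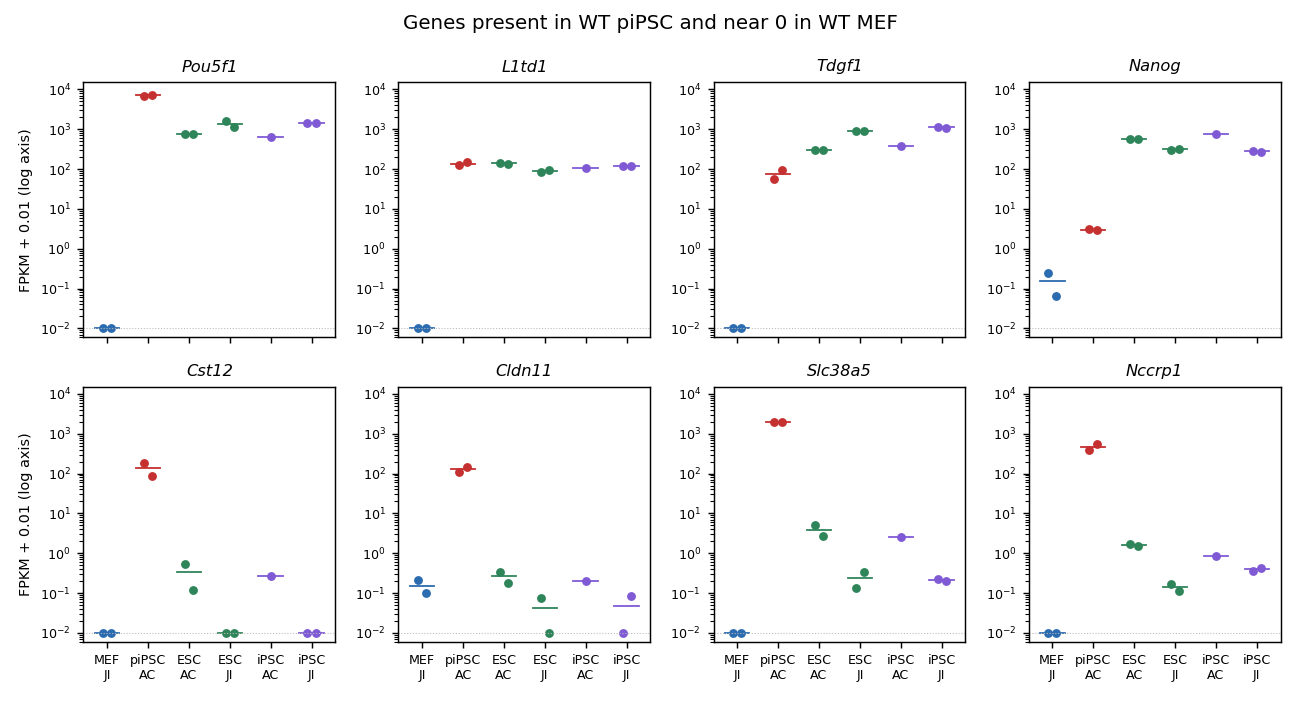
FPKM (log axis, 0.01 added, dotted line at 0) of 8 genes near 0 in the MEF, in every library by cell type and code series; points are libraries and bars group means. Pou5f1 and L1td1 reach or exceed the ESC and iPSC range, Tdgf1 and Nanog stay below it, and Cst12, Cldn11, Slc38a5 and Nccrp1 are high in the piPSC only.

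Of 22 tested simple epithelial and junction genes, 13 rose (59.1%) and 5 fell (22.7%), against 12.7% and 16.0% of all tested genes. The median log2 change was 2.73. Another 9 of the 31 listed were not tested, and 11 of the 31 had means under 1 FPKM in both groups. Genes near 0 in the MEF entered the test only where the piPSC were high, so the filter itself favours rises here. Cdh1, E-cadherin, rose from 0.291 and 0.392 to 8.83 and 10.5 FPKM (log2 change 4.71 ± 0.19 (SE)) and Epcam from 0.236 and 0.446 to 4.58 and 7.45. Both stayed below ESC and iPSC, at 28.6 to 163 and 15.1 to 244 FPKM. Dsp, the desmosomal linker desmoplakin, rose from 0.146 and 0.0629 to 17.2 and 21.8 FPKM, above every ESC and iPSC library (0.456 to 12.2). Esrp1 and Ovol2, epithelial regulators, reached 0.871 and 1.45 FPKM (Esrp1) and 3.54 and 2.04 FPKM (Ovol2). The 5 that fell were the keratins Krt7, Krt8, Krt18 and Krt19 and the cadherin Cdh3. Krt18 fell from 51.1 and 49.3 to 0.435 and 0.419 FPKM and Krt8 from 13.2 and 14.3 to 2.27 and 1.70. These keratins differ strongly between the series (6.86 and 6.84 FPKM of Krt18 in AC ESC, 472 and 308 in JI ESC), and with the series term the change of Krt8 was 2.18, called higher, and that of Krt18 -0.65. With that term 12 of the 13 rises and 2 of the 5 falls were still called.

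Stratified epithelial genes also moved both ways. Dsg2, a desmosomal cadherin, rose from 0.0592 and 0.132 to 65.7 and 78.1 FPKM (log2 change 9.09 ± 0.21 (SE)). Its relative Dsg3 had no fragment in the MEF and 20.5 and 20.2 FPKM in the piPSC, at least 321-fold higher. The series-adjusted change of Dsg3, 9.31, passed the 4-fold limit but was not called on its adjusted p. Nccrp1, which is known from squamous epithelia, went from 0 to 396 and 545 FPKM, at least 2555-fold higher, with 0.103 to 1.70 in ESC and iPSC. Of 22 tested genes of this list, 11 rose (50%) and 4 fell (18.2%), against 12.7% and 16.0% of all tested genes. The share of falls was thus near that of all genes. Another 10 of the 32 matched genes were not tested, and the same filter favours rises here. The falls were Krt14, from 4.96 and 4.57 to 0.427 and 0.456 FPKM (series-adjusted -0.51), Sprr1a, from 25.0 and 23.6 to 0.33 and 0.0962, Krt6a and involucrin (Ivl). Krt5 and Trp63, which define basal keratinocytes, did not pass the filter on low counts. The 4 keratinocyte markers summed to 5.24 and 4.78 FPKM in the MEF and 21.2 and 20.8 in the piPSC, nearly all of it Dsg3.

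The 10 largest rises, among genes with at least 10 fragments in the MEF and also called with the series term, were led by Atp2a3, an endoplasmic reticulum calcium pump. It had 0.0257 and 0.194 FPKM in the MEF and 437 and 489.6 in the piPSC and rose by 11.51 ± 0.24 (SE) (edgeR adjusted p = 4.30e-16). Eya2, a transcriptional coactivator and phosphatase, rose from 1.06 and 0.368 to 284 and 277 FPKM, with 0.0408 to 2.15 in ESC and iPSC. Lama3, the alpha-3 laminin chain of epithelial basement membranes, rose from 0.208 and 0.286 to 189 and 156, and Ryr3, a calcium release channel, from 0.36 and 0.152 to 74.9 and 74.2. Gna14, a G protein alpha subunit, rose from 0.137 and 0.244 to 45.7 and 45.3, and the splicing factor Rbm20 from 0.188 and 0.0876 to 25.9 and 28.4. Shisa3 reached 39.2 and 40.6 FPKM and Papln, a secreted matrix protein, 20.7 and 29.6. Dsg2 and Dsp complete the 10.

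The class under 1 FPKM in the MEF, ESC and iPSC was mixed. Cst12, a cystatin-family protease inhibitor, had no fragment in the MEF and 184 and 88.4 FPKM in the piPSC, where the libraries differed by more than 2-fold. Cldn11, a tight junction claudin, had 0.198 and 0.0879 in the MEF and 111 and 148 in the piPSC, with 0 to 0.335 in ESC and iPSC. Gcnt3, a mucin-type glycosyltransferase, went from 0 to 90.9 and 86.5 FPKM, at least 1471-fold higher. Esam, an adhesion molecule of endothelial junctions, rose from 0.13 and 0.275 to 53.0 and 59.1. Nell1, a secreted osteogenic factor, rose from 0.515 and 0.948 to 42.8 and 30.0, and the C-type lectin Clec2g reached 42.4 and 50.8. Klk1b27, at 39.5 and 41.5 FPKM, belongs to a kallikrein family of near-identical genes, so its reads may be shared with its relatives. The series-adjusted changes of Cst12 (8.64) and Klk1b27 (7.90) passed the 4-fold limit but were not called on their adjusted p.

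The most abundant gene of this kind fell just outside the class. Slc38a5, a transporter of neutral amino acids, had no fragment in the MEF and 1952 and 1931 FPKM in the piPSC, at least 12838-fold higher, and 0.128 to 5.01 in ESC and iPSC. Among 27 amino acid transport and one-carbon genes, 4 rose (14.8%) and 0 fell, against 12.7% and 16.0% of all tested genes. The share of rises was thus near that of all genes. Beside Slc38a5, the other 3 were Slc7a7 (from 0.817 and 1.49 to 26.1 and 27.2 FPKM), Gcat (from 3.22 and 3.73 to 17.1 and 21.7) and Tdh. The Tdh locus is split over separate gene models. In the glycolysis and hypoxia list 5 of 25 rose (20%, against 12.7% of all tested genes) and 1 fell (4%, against 16.0%). The fit with the series term called 15 higher and 0 lower. The rises included Aldoc, an aldolase, from 1.37 and 1.98 to 51.5 and 78.7 FPKM, and the pyruvate dehydrogenase kinases Pdk1 (from 4.53 and 4.12 to 52.1 and 60.9) and Pdk2 (from 1.92 and 1.89 to 31.5 and 36.5). The main glycolytic enzymes Gapdh (776 and 792, then 789 and 702) and Eno1 (492 and 493, then 548 and 543) were not called, though the series-adjusted change of Eno1 was 2.38.

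Of 27 DNA methylation, Polycomb and silencing genes, 4 rose (14.8%) and 0 fell, against 12.7% and 16.0% of all tested genes. The share of rises was thus near that of all genes. Cbx7, a Polycomb subunit of pluripotent cells, rose from 0.528 and 0.633 to 6.85 and 8.10 FPKM, against 45.0 to 63.5 in ESC and iPSC, and Ezh1, a Polycomb methyltransferase, from 3.94 and 4.16 to 13.9 and 17.3, a rise lost without piPSC replicate 2 (1.87) or MEF replicate 2 (1.94). The dioxygenases Tet1 (0.68 and 0.827, then 3.56 and 5.79) and Tet2 (2.28 and 2.53, then 10.7 and 11.2) also rose, but their series-adjusted changes of 0.80 and 0.28 were under 4-fold. The co-repressor Trim28 was not called, with 136 and 122 in the MEF and 112 and 128 in the piPSC.

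Other lineages moved in both directions. Of 13 endothelial genes, 5 rose (38.5%) and 5 fell (38.5%), against 12.7% and 16.0% of all tested genes. Tie1 went from 0 to 16.0 and 12.7 FPKM. Pecam1, which pluripotent cells also express (30.3 to 48.9 FPKM), rose from 0.324 and 0.433 to 28.9 and 15.5. Kdr fell from 5.13 and 5.25 to 0.0154 and 0.0105 and Ets1 from 34.5 and 33.9 to 0.0638 and 0.0715. The 7 endothelial markers summed to 9.10 and 8.35 FPKM in the MEF and 62.4 and 41.1 in the piPSC, where Emcn was at 0. Of 16 neural genes, 4 rose (25%) and 11 fell (68.8%). Stmn2, a tubulin-binding protein of neurons, rose from 6.73 and 7.51 to 701 and 571 FPKM and exceeded the 86.9 to 348 of ESC and iPSC, and Pax6 rose from 0.398 and 0.477 to 6.12 and 9.31. Gap43, a growth cone protein, had 23.0 and 25.0 FPKM in the MEF and 0 in both piPSC libraries. Of 18 muscle, cartilage, bone and fat genes, 13 fell (72.2%) and 1 rose (5.56%). Acan, the cartilage proteoglycan, had 9.24 and 9.47 FPKM in the MEF and 0 and 0.00837 in the piPSC, and Col2a1 fell from 39.5 and 40.2 to 0.101 and 0.0962.

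Many extraembryonic and germline genes were too low to test. In the primitive endoderm and basement membrane list, 11 of 17 tested genes fell (64.7%) and 2 rose (11.8%), against 16.0% and 12.7% of all tested genes. Col4a1, a basement membrane collagen, fell from 239 and 251 to 0.771 and 0.685 FPKM, while the laminin chain Lamc1 (136 and 138, then 50.0 and 54.8) and perlecan, Hspg2 (103 and 101, then 37.9 and 37.4), were not called, but were with the series term (-4.52 and -4.03). Gata4 rose from 0.148 and 0.225 to 2.15 and 2.33. Only 8 of 22 trophoblast and 7 of 23 germline genes passed the filter, mostly through the group where they were high, so their calls are not counted here. The trophoblast homeobox gene Esx1 reached 4.42 and 7.20 FPKM from 0, within the range of ESC and iPSC (3.12 to 7.59). Trap1a had 1.03 and 0.844 FPKM in the piPSC against 133 to 418 in ESC and iPSC.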

How the data were processed

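RNA was extracted with Trizol and sequenced after TruSeq RNA v2 preparation, per the labels' protocols. Per the submitters' processing notes, TopHat2 2.0.7, Bowtie2 2.0.5 and Cuffdiff 2.1.1 were used; the role of the named builds is not given in the sources used here. The authors deposited estimated counts of fragments per gene and FPKM per gene; the estimated counts are close to whole numbers, and FPKM are scaled to length and library size. Of 28670 genes, 19 with a status other than OK in any library (FAIL or HIDATA) were left out. Fragments were rounded to whole numbers and fitted with edgeR 4.0.16 (TMM, quasi-likelihood, all 17 libraries, 9 group-by-series terms, 8 residual degrees of freedom); genes needed a CPM of 1 in 2 of the 4 libraries. The fit was tested on simulated data. FPKM served for levels and classes, and the log2 changes are from the counts. Each SE is the size of the log2 change divided by the square root of the F statistic of its test. It is thus an approximation worked back from the test and not a standard error given by the fit. The lists (742 entries, 3 not matched) and the members were chosen with earlier results of these data known. Named genes were, per list, up to 4 rises and falls by size and 3 uncalled genes by level, with the 10 largest of each class and change and the reprogramming, epithelial-mesenchymal and barrier genes. Promoters are RefSeq GRCm38.p6. Alternatives (series term, other samples, scalings, tools, filters, limits, libraries left out) are given at the end. Counting limits precision at low levels. Some genes that the rule names are not reported here.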

Additional observations from a re-analysis of the deposited data

How the results depend on the processing

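The reported calls were 1781 higher and 2244 lower. Counts fell with limma on log2(FPKM + 1), which understates low genes, to 941 higher and 1202 lower, and with a CPM of at least 10, which tests fewer genes, to 972 higher and 1317 lower. A fold of at least 2 gave 3373 higher, and one of at least 8 gave 1089 higher. Leaving out 1 library at a time gave 1734 to 1797 higher and 2221 to 2266 lower. The series differences in ESC and iPSC came to 5157 and 6279 genes at 2-fold and to 507 and 786 at 8-fold. Without scaling factors the median log2 change of all genes was 0.26 and not 0.04.

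Replicate numbers 1 and 2 are shared by the groups, but deviations of same-numbered libraries were uncorrelated over genes (r = -0.0129), so the numbers do not pair the libraries. With the replicate block in the 4 libraries alone, 1788 genes were higher and 2244 lower. The chi-square per gene between replicates was 27.2 for the piPSC and 1.58 for the MEF. The MEF value is close to that of counting noise alone, so it cannot tell separate cultures from technical repeats.

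Persisting genes numbered 11 at limits of 5 and 0.5 FPKM, 2 at 20 and 2, 15 with AC only and 15 with JI only as reference, and 10 under the wider rule added after seeing the data. Leaving out 1 library gave 4 to 6. New genes shared with ESC and iPSC numbered 14 at limits of 20 and 2 and 39 with JI only, and those absent from them 66 with JI only; leaving out 1 library gave 25 to 28 and 39 to 53. Shut genes numbered 453 at limits of 5 and 0.5, with 273 of the reported 353 among them, and 237 at 20 and 2, with 197 of the 353. Leaving out 1 library gave 367 to 374. The shut and new classes need every library to pass, so leaving 1 out can only add genes and does not measure their stability.

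With the series term, of 259 named and tested genes, 5 changed sign with a call in the fit with the term: S100a6 (4.08), S100a4 (5.22), Ifitm3 (2.23), Krt8 (2.18) and Eno1 (2.38). Another 20 changed sign without a call in either fit, Tet3 (-1.56) among them, while 23 lost their call and 19 gained one. The median reversed for the barrier (0.37), endothelial (0.26) and amino acid (-0.25) lists. Of the 5, Krt8 had been called without the term. The cause was not tested. The limits are 1 clone, 2 libraries a group and groups that differ in strain and series.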
